A study of Mus musculus with 4 samples.

Results

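The Zic family members Zic1, Zic2, Zic4 and Zic5, 4 genes, were followed through every cell of 4 single-cell RNA libraries of mouse cerebral cortex. The members were taken by symbol from the 57126 features of the deposited matrices, where each of the 4 has 1 row (ENSMUSG00000032368, ENSMUSG00000061524, ENSMUSG00000036972 and ENSMUSG00000041703 in the order above). They were chosen by measured values, the earlier ratios of the library labelled E14.5 knockout over E14.5 wild type in cells with inhibitory markers, so that contrast is given here as a description. Cortex came from Tsku knockout (KO) and wild-type (WT) mice on the day of birth (P0) and from an embryo labelled Tsku KO and a WT embryo at embryonic day 14.5 (E14.5), 1 animal a library. The Tsku product, Tsukushi, is a small proteoglycan that cells release. No group has replicates, so no test between animals was made, no p-value is given, and each interval is a 95% interval that covers counting error only.

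Zic genes encode zinc finger transcription factors related to the GLI factors of the Hedgehog pathway. In the mouse brain they are known from the dorsal midline, the septum, the cortical hem and the Cajal-Retzius neurons that leave it, the thalamus, the meninges and the cerebellum. Zic1 and Zic4 lie side by side in the genome, as do Zic2 and Zic5, each pair on opposite strands. Loss of Zic2 in mouse or human disturbs the division of the forebrain, and loss of Zic1 and Zic4 the cerebellum.

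Over all cells, pairs of the 4 genes were detected together more often than if independent (below). For this reason the stretch from 250 bases before to 50 bases after the start is printed for the 3 members that RefSeq's promoter table holds (build GRCm38.p6, while the submitters' processing notes name GRCm39 for the counts). They are Zic1 at chr9:91365719-91366018 on the minus strand, Zic4 at chr9:91368722-91369021 on the plus strand, and Zic5 at chr14:122465609-122465908 on the minus strand; Zic2 has no entry. Capitals mark matches to the motifs searched.
Zic1: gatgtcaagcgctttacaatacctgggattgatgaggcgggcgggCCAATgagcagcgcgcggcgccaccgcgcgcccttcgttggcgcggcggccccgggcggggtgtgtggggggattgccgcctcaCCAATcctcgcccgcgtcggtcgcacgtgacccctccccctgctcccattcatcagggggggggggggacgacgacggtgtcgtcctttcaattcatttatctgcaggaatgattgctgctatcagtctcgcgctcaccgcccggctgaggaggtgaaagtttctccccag
Zic4: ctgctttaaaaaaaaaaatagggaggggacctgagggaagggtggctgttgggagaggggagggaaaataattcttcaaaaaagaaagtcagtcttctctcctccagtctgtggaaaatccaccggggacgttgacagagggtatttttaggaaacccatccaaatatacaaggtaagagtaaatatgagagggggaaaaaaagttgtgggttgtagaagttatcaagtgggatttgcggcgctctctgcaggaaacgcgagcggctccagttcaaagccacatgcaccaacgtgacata
Zic5: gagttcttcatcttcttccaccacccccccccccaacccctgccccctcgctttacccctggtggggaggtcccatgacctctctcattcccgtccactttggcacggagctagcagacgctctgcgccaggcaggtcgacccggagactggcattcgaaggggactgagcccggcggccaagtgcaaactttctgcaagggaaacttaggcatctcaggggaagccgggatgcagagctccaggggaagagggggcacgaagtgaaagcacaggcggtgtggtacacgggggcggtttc

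Motifs were searched on both strands as letters, none of which contains another: GACCACCCA for GLI factors, TATAAA for the TATA box, CCAAT for the box of that name, and TAATTA for homeodomain factors. CCAAT matched 2 times in the Zic1 stretch, on its printed strand, with the 1st base of the matches 205 and 121 bases before the start. CCAAT occurs in 37.4% of all 32851 promoters of this length, so a match is common. No searched motif matched in the Zic4 or Zic5 stretch, and the shares of all promoters that hold the GLI, TATA box and homeodomain letters were 0.253%, 13.6% and 5.29%. The Zic1 and Zic5 stretches were rich in G and C (65.3% and 62.7%), against 46% for Zic4 and a median of 52.7% over all promoters. The annotated spans of Zic1 and Zic4 overlap on opposite strands, and whether counting used the strand is not stated, so reads of this pair cannot be told apart with certainty.

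The 4 libraries differed in size, depth and cell make-up. The analysed cells numbered 1430 (P0 KO), 1044 (P0 WT), 4107 (labelled E14.5 KO) and 618 (E14.5 WT), with 8812049, 6025289, 14404051 and 5584291 counts and medians of 5059, 4806.5, 2829 and 7316 counts per cell. The libraries shared 0 to 2 cell barcodes a pair. Tsku had 0 counts in P0 KO, below the 0.340 CPM (counts scaled to a total of 1000000) that 3 counts would give, against 42 counts in P0 WT. The library labelled E14.5 KO held 74 Tsku counts (5.14 CPM) and E14.5 WT 52 (9.31 CPM), which goes against the KO label, and every E14.5 contrast below is between a library labelled KO and a WT one. Those libraries also differ in sex, with 6719 Xist and 1 Ddx3y counts in the labelled KO against 3 and 496 in E14.5 WT. Cells were sorted by marker counts into 5 gates, none of which uses a Zic gene, in this order: fibroblast (collagen and other meningeal genes), inhibitory (Gad and Dlx genes), Prox1-positive, progenitor, and other. Between 9.29% and 15.5% of cells met 2 or more gates and took the earliest one.

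Summed over all cells, the 4 genes gave 198 CPM in P0 KO (interval 189 to 207; 1742 counts), 115 CPM in P0 WT (106 to 124; 691 counts), 639 CPM in the library labelled E14.5 KO (626 to 653; 9211 counts) and 558 CPM in E14.5 WT (538 to 578; 3114 counts). In such sums, fewer cells of a type and less RNA per cell cannot be told apart. Zic1 had 96.7 CPM in P0 KO, 54.8 in P0 WT, 403 in the labelled E14.5 KO and 296 in E14.5 WT. Its genomic neighbour Zic4 had 14.2, 6.97, 91.7 and 99.0 CPM in the same 4 libraries. For Zic2 the levels were 23.8, 19.6, 40.7 and 72.0 CPM, again in that order. Zic5, the neighbour of Zic2, had 63.0, 33.4, 104 and 90.6 CPM. Every member was thus lower in the P0 library of each genotype label than in its E14.5 counterpart, and the gap was widest for Zic4.

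Fibroblasts held the highest family level of the 5 gates in both P0 libraries. In the labelled E14.5 KO their interval overlapped that of Prox1-positive cells, and in E14.5 WT the Prox1-positive cells were higher. In the fibroblast gate the family gave 1528 CPM in P0 KO (24 cells), 1278 in P0 WT (9 cells), 1670 in the labelled E14.5 KO (116 cells) and 1296 in E14.5 WT (18 cells), and at least 1 Zic count was found in 100%, 100%, 97.4% and 94.4% of these cells. Meningeal fibroblasts wrap the cortex and make its collagen. All 8 gate markers had counts in each library and summed to 10093 CPM in P0 KO, 4784 in P0 WT, 11658 in the labelled E14.5 KO and 9008 in E14.5 WT, a difference whose part in the Zic levels was not tested. At E14.5 the gate also held many choroid plexus transcripts (Ttr, Folr1, Kcne2 and Clic6 together 22364 CPM in the labelled KO and 73854 CPM in WT, against 25.6 and 62.1 CPM in P0 KO and P0 WT), whose part in the E14.5 levels was not tested. Zic1 in this gate stood at 1042 (P0 KO), 683 (P0 WT), 1091 (labelled E14.5 KO) and 744 CPM (E14.5 WT). Both labelled KO libraries were higher than the WT library of their age for Zic1, with intervals that do not overlap (915 to 1181 against 539 to 854 CPM at P0, and 1016 to 1172 against 637 to 865 CPM at E14.5). Zic2 went the other way, with 154 CPM in P0 KO, 257 in P0 WT, 149 in the labelled E14.5 KO and 236 in E14.5 WT, with log2 ratios of -0.74 at P0 (-1.49 to 0.01), which holds 0, and -0.67 at E14.5 (-1.15 to -0.17).

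Prox1 is a homeobox factor known from dentate granule neurons, some interneurons and young thalamic neurons. Its gate took only cells outside the fibroblast and inhibitory gates, so most cells with Gad and Dlx counts are not in it. In P0 KO it also held counts of Pdgfra, a receptor of oligodendrocyte precursors (below), so it is not a single cell type. Prox1-positive cells differed widely with age. Their family level was 342 CPM in P0 KO (309 to 377; 399 counts in 152 cells), 149 CPM in P0 WT (83.2 to 245; 15 counts in 17 cells), 1559 CPM in the labelled E14.5 KO (91 cells) and 1849 CPM in E14.5 WT (28 cells). Zic5 differed most clearly at P0, with 134 CPM (113 to 156; 156 counts) in KO cells against 19.8 CPM (2.40 to 71.6; 2 counts) in WT cells. Zic4 had 15 counts in P0 KO and 0 in P0 WT, where 3 counts would already be 29.7 CPM, so no fold is given. In the inhibitory gate the family stood at 119 (P0 KO), 48.3 (P0 WT), 769 (labelled E14.5 KO) and 827 CPM (E14.5 WT). In the progenitor gate it stood at 206, 175, 604 and 577 CPM in the same order. Inhibitory cells were thus below progenitors in both P0 libraries and above them in both E14.5 libraries, with intervals that do not overlap. In E14.5 WT that order turned round without the 5 cells of the library with the most Zic counts, which left 385 CPM in inhibitory cells and 465 CPM in progenitors, while the labelled KO kept 749 and 570 CPM.

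**Figure D1:**
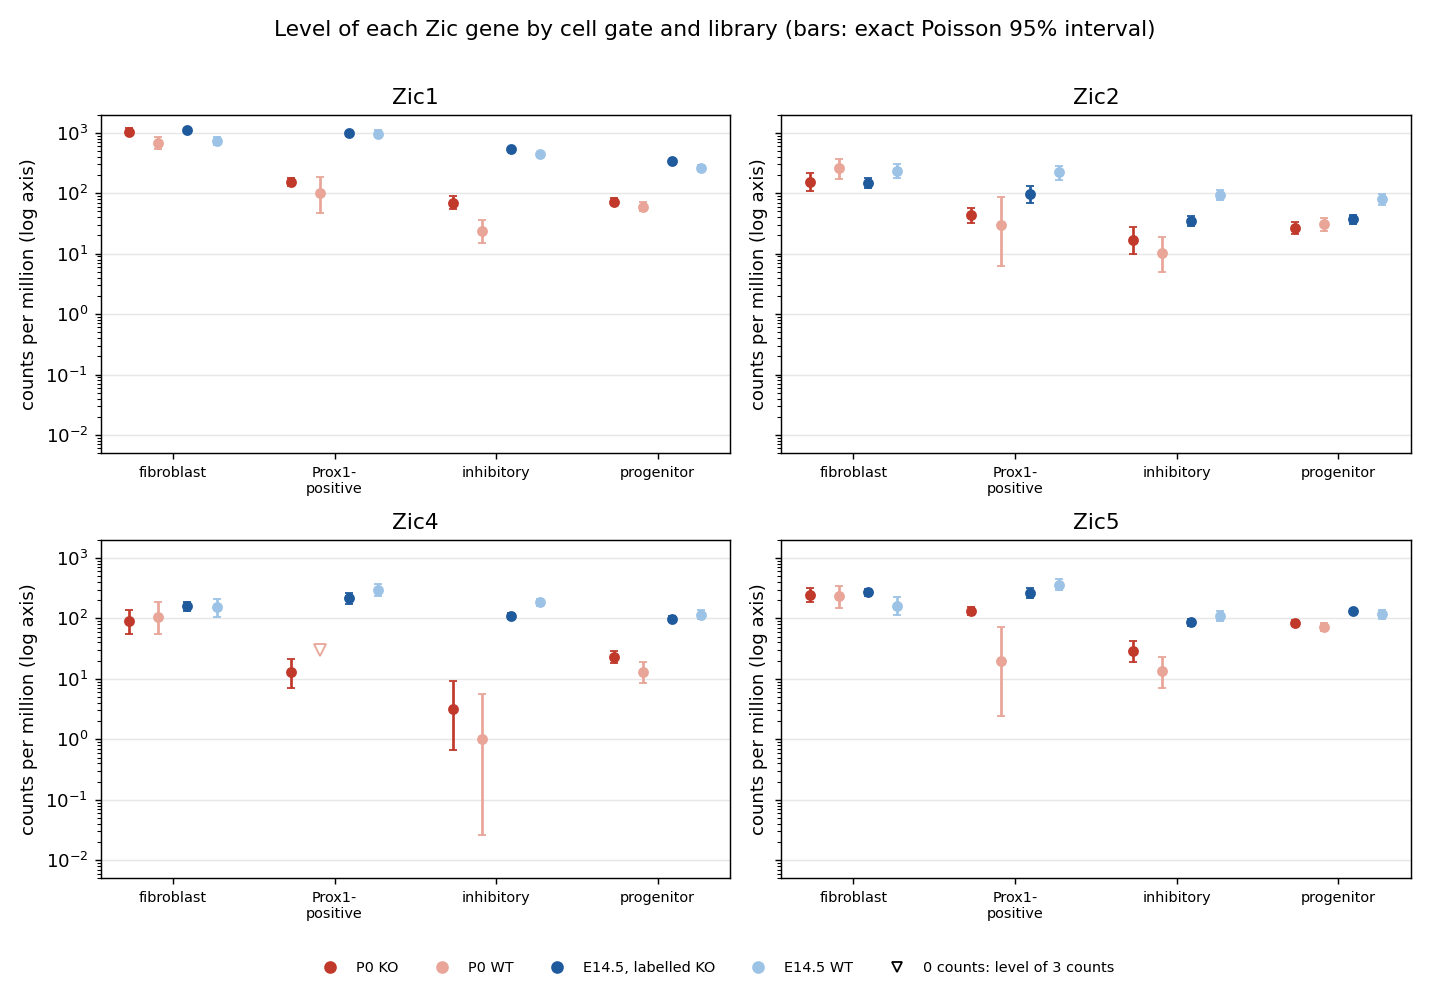
Level of each Zic gene in CPM (log axis) by cell gate, with exact Poisson 95% intervals; filled points are, from left, P0 KO, P0 WT, the library labelled E14.5 KO and E14.5 WT, and open triangles mark the level of 3 counts where a gene had 0. Fibroblasts sit near 1000 CPM for Zic1 in P0 KO and at similar height at both ages, while inhibitory cells sit lower at P0 than at E14.5 for all 4 genes. That gap is smallest for Zic2 between P0 KO (17.0 CPM) and the labelled E14.5 KO (34.7 CPM).

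Ungated cells included small groups with high family levels. Thalamic cells, called by 3 or more of Tcf7l2, Lhx9, Gbx2, Shox2, Slc17a6 and Rora, held 4580 CPM of Zic counts in the labelled E14.5 KO (63 cells) and 3706 CPM in E14.5 WT (8 cells). There was 1 such cell in P0 KO, with 0 Zic counts, and none in P0 WT. Cajal-Retzius cells, the Reln-secreting neurons of the cortical surface, held 1211 CPM in P0 KO (8 cells), 534 CPM in P0 WT (2 cells), 2845 CPM in the labelled E14.5 KO (46 cells) and 1337 CPM in E14.5 WT (7 cells). Microglia, which arise outside the neural tube, served as a type that should lack these genes. They had 2, 0, 1 and 2 Zic counts in 40 (P0 KO), 14 (P0 WT), 37 (labelled E14.5 KO) and 10 cells (E14.5 WT), with median depths of 5572, 4832, 2492 and 7178.5 counts.

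The make-up of the family's counts, as deposited, differed between cell types and ages. These shares are of counts, which are not scaled to gene length, so a gene's share is compared only with its own share elsewhere. In progenitors, Zic5 gave 40.5% of the family's counts in P0 KO (36.7 to 44.3) and 40.9% in P0 WT (35.9 to 46.0), against 21.7% in the labelled E14.5 KO (19.9 to 23.5) and 20.5% in E14.5 WT (17.5 to 23.7). Zic1 gave 35.2% and 34.3% in P0 KO and P0 WT progenitors, and 56.1% and 45.9% in the labelled E14.5 KO and E14.5 WT. For these 2 genes the P0 libraries lay together, apart from both E14.5 libraries. The Zic2 share did not follow age, with 13.0% in P0 KO (10.6 to 15.8), 17.4% in P0 WT (13.7 to 21.6), 6.17% in the labelled E14.5 KO (5.17 to 7.29) and 13.8% in E14.5 WT (11.3 to 16.6). In fibroblasts Zic5 stayed between 12.5% and 18.1% in all 4 libraries and Zic1 between 53.5% and 68.2%. Zic4 supplied 7.18% of all family counts in P0 KO and 6.08% in P0 WT, against 14.3% in the labelled E14.5 KO and 17.8% in E14.5 WT. In P0 inhibitory cells Zic4 was close to absent, with 3 counts in KO and 1 in WT, against 334 in the labelled E14.5 KO and 212 in E14.5 WT.

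**Figure D2:**
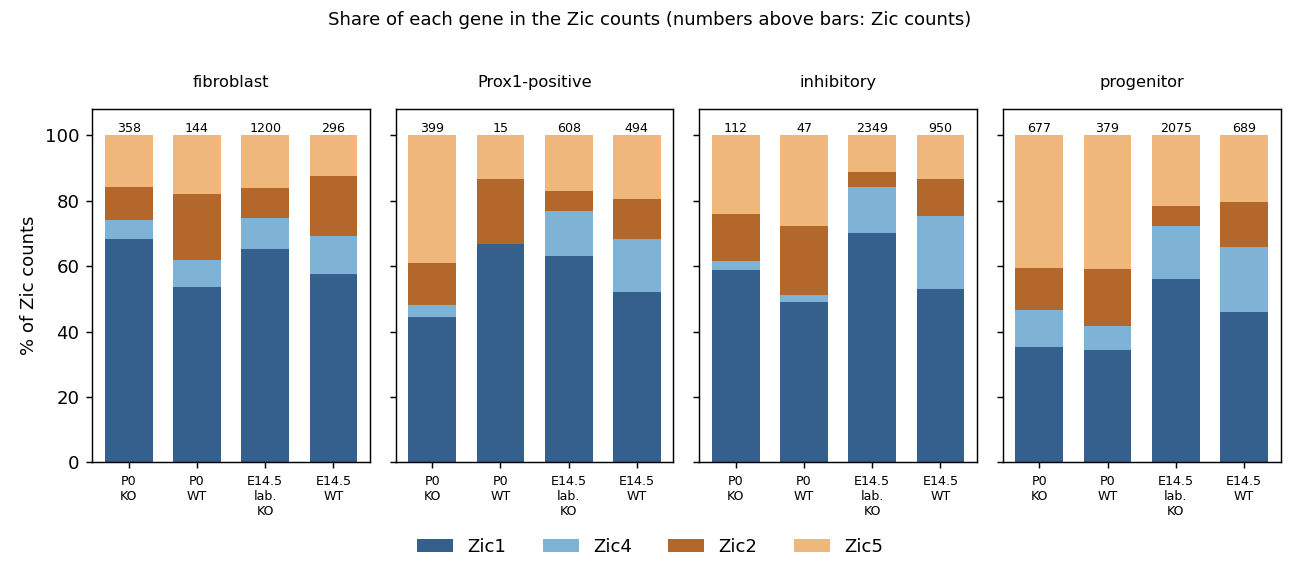
Share of Zic1, Zic4, Zic2 and Zic5 in the Zic counts (%) of 4 cell gates, with bars for P0 KO, P0 WT, the library labelled E14.5 KO and E14.5 WT from left, and the number of Zic counts above each bar. Zic5 takes 40.5% and 40.9% in the P0 progenitor bars against 21.7% and 20.5% in the E14.5 ones.

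The age difference was not the same in all cells. Over all cells of the WT libraries, P0 over E14.5, 4 of 4 members were at least 2-fold lower, where 5.05% of 13261 genes measured were lower and 6.17% higher (genes with 30 or more counts over both sums). Their log2 ratios were -2.43 for Zic1 (-2.61 to -2.26), -3.83 for Zic4 (-4.32 to -3.37), -1.88 for Zic2 (-2.19 to -1.58) and -1.44 for Zic5 (-1.68 to -1.20). In WT inhibitory cells all 4 were 2-fold lower, against 4.66% of genes (3.9% higher), and the family ratio was -4.10 (-4.55 to -3.68). In WT progenitors 3 of 4 were 2-fold lower, against 4.44% of genes (9.62% higher), with Zic5 the exception at -0.72 (-1.06 to -0.38). Thinning every cell to 1500 counts turned this round for 2 members, with -0.34 for Zic2 and -1.49 for Zic5. The thinned Zic2 value rested on 14 P0 and 7 E14.5 cells with a count, and that of Zic5 on 20 and 23. In the other WT cells 4 of 4 were lower, against 4.6% of genes (5.04% higher). In WT fibroblasts the family ratio was -0.02 (-0.32 to 0.27), an interval that holds 0. In E14.5 WT the inhibitory level rests on few cells (described with the E14.5 comparison), and without the 5 top cells the WT ratio was -3.68. The P0 KO library over the labelled E14.5 KO library gave a fibroblast ratio of -0.13 (-0.30 to 0.04) and an inhibitory ratio of -2.69 (-2.98 to -2.42), and its progenitor values were -2.23 for Zic1, -2.05 for Zic4, -0.48 for Zic2 and -0.65 for Zic5. Over all its cells 2 of 4 members were 2-fold lower, against 6.13% of 14713 genes (12.8% higher), and in its inhibitory cells 4 of 4 were, against 7.51% of 10038 genes (6.6% higher). In Prox1-positive cells 3 of 4 were lower, with Zic5 at -0.98, against 5.35% of 8399 genes (13.2% higher). Thinned, Zic2 was under 2-fold in the Prox1-positive cells (48.2 CPM in P0 KO against 89.9 CPM in the labelled E14.5 KO, from 10 and 8 cells with a count). Zic5 passed 2-fold there (114 against 247 CPM) and over all cells (51.8 against 106 CPM). In progenitors Zic1 and Zic4 were lower, 2 of 4, against 8.59% of 12056 genes (12.8% higher), and in the other cells 4 of 4, against 8.21% of 12359 genes (10.8% higher).

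Gene lists for the places where Zic genes are known held more genes that were lower at P0 than higher in the same libraries. Over all WT cells, P0 over E14.5, 5.05% of all genes measured were 2-fold lower and 6.17% higher. Genes of the septum and its cholinergic neurons were 2-fold lower for 6 of 6 measured, from a list of 11. Genes enter each list count by counts summed over both libraries. A gene near absent at P0 thus enters through E14.5 alone and is bound to be lower, so 6 of 6 is partly set by this filter. Isl1 had 7 counts at P0 against 185 at E14.5 and Nkx2-1 10 against 98, while Six3 had 70 against 405. Genes of the cortical hem and midline were lower for 7 of 8 (Rspo3, a Wnt enhancer, 11.1 CPM at P0 against 80.0 CPM at E14.5). The remaining 1, Dkk3, was 2-fold higher (117 CPM at P0 against 34.7 CPM at E14.5). Cajal-Retzius genes were lower for 6 of 7 (Reln 33.7 against 86.5 CPM). Thalamic genes were lower for 4 of 7 (1 higher) and meningeal genes for 5 of 7 (1 higher). The medians of these lists were -1.99 and -2.01, beside -2.16 for the Zic family and 0.07 for all genes. The Hedgehog list, which holds the GLI relatives of the Zic proteins, had 2 of 9 higher, 1 lower and a median of 0.17, and of 9 inhibitory subtype genes 3 were lower and 1 higher. Choroid plexus cells (2 or more of Folr1, Kcne2 and Clic6 detected) made up 3.17% of cells of the labelled E14.5 KO and 3.07% of E14.5 WT and were absent from the analysed P0 cells. The part that tissue included at dissection had in the age difference was not tested.

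At P0, the KO library was higher than the WT library in the family sum over all cells, with a log2 ratio of 0.79 (0.66 to 0.91). Of the 4 members 1 was at least 2-fold higher, where 3.75% of 13828 genes were and 1.05% were lower. That member was Zic4 at 1.03 (0.51 to 1.57), with 125 counts against 42. Zic5 gave 0.92 (0.68 to 1.16), Zic1 0.82 (0.63 to 1.01) and Zic2 0.28 (-0.05 to 0.62), an interval that holds 0. Without the 5% of cells with the highest doublet scores the family ratio was 0.60 and that of Zic4 0.31, which ends its place past 2-fold, and thinning every cell to 1500 counts gave 0.30 for Zic4, 1.01 for Zic2 and 1.21 for Zic5.

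The surplus lay mostly outside the inhibitory cells. P0 KO exceeded P0 WT by 83.0 CPM of the whole library, and of that difference 51.6% came from Prox1-positive cells, 20.2% from fibroblasts, 16.8% from progenitors, 5.91% from inhibitory cells and 5.60% from the other cells. Prox1-positive cells made up 10.6% of P0 KO cells and 1.63% of P0 WT cells, and fibroblasts 1.68% and 0.862%. Within progenitors, the largest holder of Zic counts in both P0 libraries, no member passed 2-fold (2.39% of 11600 genes were 2-fold higher and 1.35% lower) and the family ratio was 0.23 (0.05 to 0.42). That ratio became -0.0065 without the highest doublet scores. In inhibitory cells the 2 members with 30 or more counts, Zic1 at 1.57 (0.87 to 2.32) and Zic5 at 1.10 (0.10 to 2.18), were 2-fold higher, against 2.78% of 8301 genes (2.52% lower), and the family ratio was 1.30 (0.80 to 1.82). It rested on 112 counts in KO and 47 in WT, was 0.43 without cells that met 2 or more gates, and was 1.99 without the 5 cells of each library that held the most Zic counts. Those cells included an inhibitory cell only in P0 WT, which held 18 of the 47 counts (38.3%). Leaving them out therefore took Zic counts from the WT side of this gate alone. In the other cells Zic5 was 2-fold higher, at 41 counts in KO against 5 in WT (2.78, 1.45 to 4.48), where 4.1% of 11149 genes were (1.03% lower), and 25 of the KO counts lay in the 8 Cajal-Retzius cells.

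**Figure D3:**
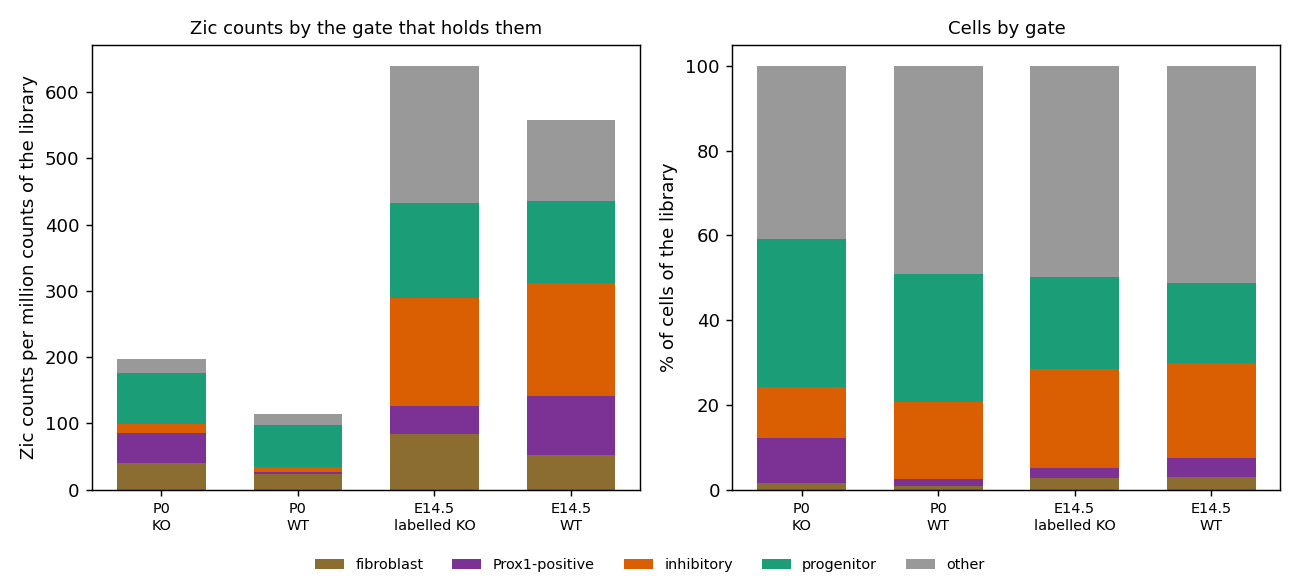
Left, Zic counts in CPM of the whole library, stacked by the gate that holds them; right, cells of each library by gate (%). Bars are P0 KO, P0 WT, the library labelled E14.5 KO and E14.5 WT. The purple Prox1-positive segment is 45.3 CPM in P0 KO against 2.49 in P0 WT, and the same gate is 10.6% against 1.63% of cells.

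Other lists differed between the P0 libraries beside the Zic genes. Cortical hem and midline genes were 2-fold higher in P0 KO for 5 of 7 measured (Msx1, a homeobox gene of the dorsal midline, 8.51 CPM in KO against 3.15 CPM in WT), Cajal-Retzius genes for 5 of 7 (Nhlh2 36.4 against 11.9 CPM) and meningeal genes for 3 of 6 (Col3a1 59.4 against 14.3 CPM). The hem genes Dkk3 (172 CPM in KO against 117 CPM in WT) and Rspo3 (13.8 against 11.1 CPM), both more abundant than Msx1, were under 2-fold. Reln, more abundant than Nhlh2, was also under 2-fold (58.6 against 33.7 CPM). Medians of the hem, Cajal-Retzius and meningeal lists were 1.91, 1.17 and 1.21 on the log2 scale, beside 0.87 for the Zic family and 0.05 for all genes. In the Hedgehog list 1 of 9 was higher and none lower, with a median of 0.11, and Ptch1, the receptor and a target of the pathway, had 97.9 CPM in KO against 79.2 CPM in WT. Of thalamic genes 1 of 5 was higher, of inhibitory subtype genes 1 of 8 was lower, and the 1 septal gene measured, Six3, was lower (2.38 CPM in KO against 11.6 CPM in WT). The part of cell make-up in the Zic difference was not tested beyond the split by gate.

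At E14.5, the library labelled KO and the WT library differed little in the family sum, and the members diverged. The log2 ratio of the sum was 0.20 (0.14 to 0.26), with 0.44 for Zic1 (0.36 to 0.52), 0.20 for Zic5 (0.06 to 0.35), -0.11 for Zic4 (-0.26 to 0.04) and -0.82 for Zic2 (-1.01 to -0.64). The sum became 0.57 and Zic2 -0.49 without the 5 cells of each library with the most Zic counts. None was past 2-fold, where 2.3% of 14134 genes were higher and 4.24% lower. Zic2 was below WT in the labelled KO in the fibroblast (-0.67), Prox1-positive (-1.18), inhibitory (-1.44) and progenitor gates (-1.09), and near it in the other cells (-0.04). The progenitor value of Zic2 became -0.13 after thinning to 1500 counts per cell, in libraries whose median depths differ (2829 against 7316 counts). It then rested on 45 cells with a Zic2 count in the labelled KO and 7 in WT. Thinning also gives every cell the same weight, and the part of depth was not tested. In progenitors Zic2 was the only member past 2-fold, lower as 3.3% of 11075 genes were (4.09% higher). In the other cells Zic4 was past it at 1.05 (0.72 to 1.39), higher as 4.98% of 12092 genes were (3.85% lower), and the family ratio was 0.81 (0.69 to 0.93). Thinned, Zic4 stood there at 70.3 CPM in the labelled KO (111 cells with a count) against 36.0 CPM in WT (9 cells), which is under 2-fold.

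At E14.5, meningeal genes were 2-fold higher in the labelled KO for 4 of 7 measured, with a median of 1.11. Col3a1 had 201 CPM against 91.7 CPM in WT, while Col1a2 (213 against 199 CPM) and Col1a1 (72.3 against 46.2 CPM) were under 2-fold. Of hem, Cajal-Retzius and thalamic genes 0 of 8, 0 of 7 and 0 of 7 were past 2-fold (medians -0.18, -0.12 and 0.21). Of 8 septal genes 2 were higher and 3 lower, of 8 Hedgehog genes 2 were lower, and of 9 inhibitory subtype genes 1 was higher, beside medians of 0.05 for the Zic family and 0.06 for all genes.

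In the inhibitory gate, whose E14.5 contrast led to the choice of these genes, Zic1 had 1646 counts in the labelled KO (539 CPM, 961 cells) and 504 counts in WT (439 CPM, 139 cells). Zic4 had 109 CPM in the labelled KO against 185 CPM in WT, Zic5 86.1 against 110 CPM, and Zic2 34.7 against 94.0 CPM. Zic2 was past 2-fold, lower as 4.81% of 10188 genes were (4.13% higher), and stood at -0.30 with cells thinned. The thinned value rested on 41 cells with a Zic2 count in the labelled KO and 9 in WT. The WT levels of the gate as deposited rest on 2 cells. Barcodes of 88266 and 65261 counts, each meeting 3 gates, held 319 and 248 Zic counts, or 59.7% of the 950 in the WT gate. The same 2 barcodes held 82.5% of the 103 counts of Fgf17, a growth factor of the rostral patterning centre, in the whole WT library. Without the 5 cells of each library that held the most Zic counts, the log2 ratios of labelled KO over WT were 1.13 for Zic1, 1.03 for Zic4, 0.87 for Zic5, -0.47 for Zic2 and 0.96 for the family, in place of 0.30, -0.76, -0.35, -1.44 and -0.10. The direction for Zic4, Zic5 and the family in E14.5 inhibitory cells therefore depends on those cells.

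**Figure D4:**
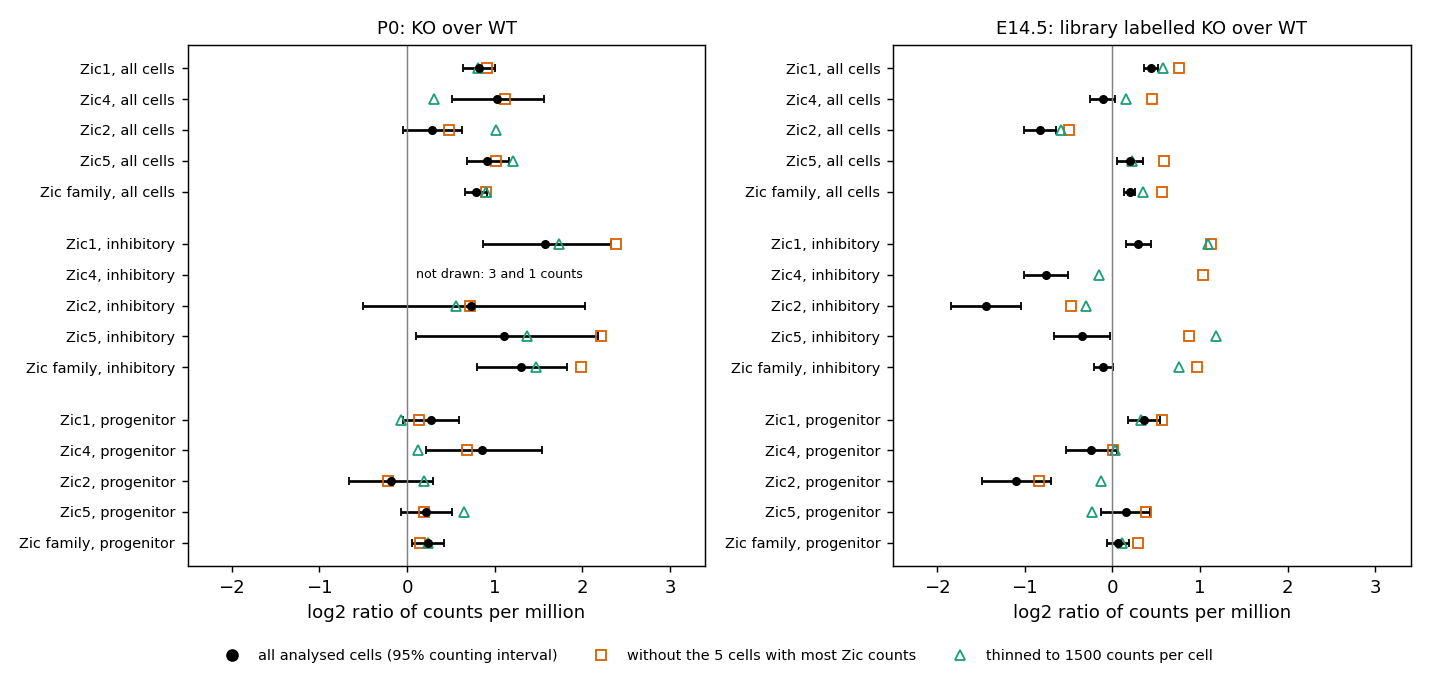
Log2 ratio of CPM for each member and their sum, P0 KO over WT on the left and the library labelled E14.5 KO over WT on the right; black points carry 95% counting intervals, orange squares leave out the 5 cells of each library with the most Zic counts, and green triangles thin each cell to 1500 counts. The inhibitory values at E14.5 shift most, with -0.10 for the sum and 0.96 without those cells, and the inhibitory sum at P0 also rises. Within each age the sum over all cells moves less than the inhibitory sum, at P0 from 0.79 to 0.90 without those cells.

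Zic counts were spread over few cells, and over all cells each pair of members was found together more often than if independent. Many cells with a family count had only 1 member detected, 264 in P0 KO, 163 in P0 WT, 643 in the labelled E14.5 KO and 68 in E14.5 WT. All 4 members were detected in 17, 6, 174 and 58 cells in the same order. At least 1 family count was found in 29.1% of P0 KO cells, 21.6% of P0 WT cells, 33.9% of cells of the labelled E14.5 KO and 30.4% of E14.5 WT cells, and 50% of all family counts lay in 56, 33, 202 and 19 cells. The 5 cells with the most held 9.59%, 16.6%, 3.55% and 27.8% of each library's family counts. With every cell thinned to 1500 counts, Zic1 and Zic4 were detected together in 12 cells of P0 KO (1.44 if independent), 5 of P0 WT (0.57), 250 of the labelled E14.5 KO (67.8) and 30 of E14.5 WT (5.63). The other neighbours, Zic2 and Zic5, were found together in 11 (3.20), 2 (0.56), 95 (19.6) and 25 (4.16) cells. Pairs from different chromosomes were also joined, with Zic1 and Zic5 together in 21 (6.65), 6 (1.50), 277 (88.0) and 30 cells (8.22). These sums mix cell types, and within thinned P0 progenitors the numbers were small. There Zic1 and Zic4 were together in 4 cells of KO (0.58) and 3 of WT (0.55), Zic1 and Zic2 in 1 (1.60) and 0 (1.10), Zic2 and Zic5 in 4 (2.66) and 1 (0.88), and Zic4 and Zic5 in 4 (0.96) and 0 (0.44). In cells as deposited, 85.7%, 73.1%, 90.1% and 93.8% of cells with a Zic4 count also had a Zic1 count (P0 KO, P0 WT, labelled E14.5 KO, E14.5 WT). Zic1 was found in 14.8%, 10.6%, 28.5% and 25.7% of all cells. Cells with both were 5.81, 6.87, 3.16 and 3.65 times the number if independent. For Zic2 and Zic5 the values were 3.12, 4.43, 4.26 and 4.49. The more cells hold the commoner gene of a pair, the lower the highest value that this measure can reach. Zic1 was found in more cells at E14.5 than at P0, so the values are not compared between pairs or ages. The overlap of the Zic1 and Zic4 spans limits what their pair shows (above).

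Cells with 2 or more Zic counts were set against cells with none within a gate, as a description over cells of 1 animal each. The genes given for these contrasts were picked after their values were seen, so they stand for themselves and for no group of genes. In P0 progenitors Pdgfra, a receptor of oligodendrocyte precursors, stood at 161 CPM in 119 positive cells against 981 CPM in 288 negative cells of P0 KO, and at 39.4 CPM in 85 positive cells against 599 CPM in 171 negative cells of P0 WT. Cspg4, a proteoglycan known from the same precursors, stood at 59.5 against 366 CPM in P0 KO and 23.1 against 233 CPM in P0 WT. The positive progenitors were deeper (medians of 7220 against 5073 counts in KO and 7540 against 5319 in WT). Among P0 Prox1-positive KO cells, Dkk3 stood at 269 CPM in positive against 107 CPM in negative cells and Pdgfra at 131 against 762 CPM.

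In E14.5 progenitors Ttr, the transthyretin gene of the choroid plexus, stood at 34790 CPM in positive against 404 CPM in negative progenitors of the labelled KO, and at 34565 against 45.6 CPM in WT. Rspo3 stood at 138 against 19.9 CPM in the labelled KO and 196 against 7.59 CPM in WT, and Msx1 at 65.5 against 1.99 CPM and 129 CPM against 0 counts. Barcodes called choroid plexus by their markers (above) held 818 CPM of Zic counts in the labelled KO (130 cells) and 1636 CPM in WT (19 cells). They supplied 6.61% and 16.4% of each library's Zic counts. Of the 19 in WT, 8 lay in the progenitor gate and 8 in the other gate, so the rest met earlier gates. The part of deep barcodes of other cell types in this WT level was not tested. Leaving this set out moved the E14.5 family ratio over all cells to 0.35, and it also moved the ratio in inhibitory cells (below). Among ungated cells, Reln stood at 338 CPM in positive against 13.4 CPM in negative cells of the labelled E14.5 KO and at 1053 against 5.88 CPM in E14.5 WT. The same contrast at P0 gave 2642 against 2.07 CPM in KO and 1172 against 0.817 CPM in WT. Tcf7l2, a factor of thalamic neurons, stood at 929 against 17.7 CPM in the labelled E14.5 KO and 516 against 8.14 CPM in E14.5 WT.

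Among inhibitory cells Lhx6, the factor of neurons from the medial ganglionic eminence, stood at 17.8 CPM in 22 positive against 166 CPM in 128 negative cells of P0 KO, at 126 against 195 CPM in the labelled E14.5 KO and at 44.3 against 174 CPM in E14.5 WT. Nr2f2, of the caudal ganglionic eminence, had 0 counts in the positive cells against 96.6 CPM in the negative ones of P0 KO, 181 against 309 CPM in the labelled E14.5 KO and 94.1 against 322 CPM in E14.5 WT. Sp8, of dorsal lateral eminence and septal lineages, was higher in positive cells, at 444 against 329 CPM in P0 KO, 127 against 56.3 CPM in the labelled E14.5 KO and 58.1 against 29.5 CPM in E14.5 WT. P0 WT had 5 positive inhibitory cells and is not described. In the E14.5 WT gate the 2 deep barcodes are among the 25 positive cells, and haemoglobin transcripts were also higher there (Hbb-bs 3878 against 98.0 CPM), while they were lower in positive cells of the labelled KO (117 against 704 CPM). Their part in these contrasts was not tested.

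Across the 17 sums of gate and library with 20 or more cells, the genes most like each member, by Pearson correlation of log2(CPM + 1) among 13000 genes with 100 or more counts, included at least 1 other member in each case. The points share libraries, so the values are a description. For Zic1 the order was Zic4 (0.93), Zic2 (0.90), Wif1 (0.89), Pdlim7 (0.89) and Qng1 (0.88). For Zic4 it was Zic1 (0.93), Zic2 (0.90), Spice1 (0.89), Zfp521 (0.89) and Zic5 (0.89). Zic2 was most like Zic5 (0.94), followed by Gm56769 (0.94), 2610035F20Rik (0.91), Tmem126b (0.90) and Zic1 (0.90). Zic5 was most like Zic2 (0.94), followed by Phkb (0.91), Vim (0.91), Pard3b (0.91) and Tpbg (0.90). Each member's closest gene was thus its neighbour in the genome, and 2610035F20Rik is an annotated neighbour of both Zic5 and Zic2.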

How the data were processed

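Single-cell RNA was measured in 4 libraries of mouse cerebral cortex. Per the labels' protocols, trypsin was used to free the cells, and 15000 per library entered the Asteria bead kit. The matrices deposited by the authors hold counts, whole numbers per gene and barcode with no scaling. The submitters' processing notes name GRCm39, FastQC 0.12.1, Seurat 5 and R 4.3.2 without a role. With aligner, counter and any collapsing of reads to molecules not given in the sources used here, counts are treated as independent and intervals cover counting error only.

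Analysed barcodes had 500 counts or more, 300 genes or more and no more than 10% of counts from mitochondria (numpy 2.4.6, scipy 1.17.1 and pandas 2.3.3 in Python 3.11.15). Scrublet in scanpy 1.11.5, set to expect 5% doublets, marked 6, 3, 0 and 2 barcodes in P0 KO, P0 WT, labelled E14.5 KO and E14.5 WT. That is too few to have worked, so doublets remain. Gates needed 3 genes and 5 counts of 8 markers (fibroblast), 2 genes and 3 counts of 8 (inhibitory), 2 Prox1 counts, or 3 genes and 4 counts of 10 (progenitor). CPM is counts scaled to a total of 1000000 over the same cells. Thinning to 1500 counts left out 1 cell of each library but the labelled E14.5 KO, where it left out 141. Levels carry exact Poisson, shares Clopper-Pearson and ratios conditional binomial intervals. Past 2-fold means a log2 ratio of at least 1, or at most -1, among genes with 30 or more counts over both sums, with a sum of 0 set to 3 counts. TMM scaling used edgeR 4.0.16 in R 4.3.3. The ratio was tested on simulated data. Members, gates and lists were chosen with earlier results of these data known. A further gene and a class of ungated cells are not reported here. All 4 members are named everywhere, other genes by rule: the 5 genes most like each member and genes among the 3 most abundant of a list. Fgf17 and the genes named for Zic-positive and Zic-negative cells were picked after their values were seen.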

Additional observations from a re-analysis of the deposited data

Results flagged for a closer look

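The log2 ratio of Zic5 in the inhibitory gate ran in opposite directions at the 2 ages, at 1.10 for P0 KO over P0 WT (27 against 13 counts) and at -0.35 for the library labelled E14.5 KO over E14.5 WT (263 against 126 counts). Both counting intervals leave out 0 (0.10 to 2.18 and -0.66 to -0.03). Of the 13 counts in P0 WT, 7 lay in 1 cell. The difference between the ages was not tested, since each library is 1 animal. The E14.5 value was 0.87 without the 5 cells of each library with the most Zic counts.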

How the results depend on the processing

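No paired analysis was possible because each group is 1 library. Over all, inhibitory and progenitor cells, ratios of the Zic sum and its members for KO label over WT at each age and for WT P0 over E14.5 kept their direction under TMM and median-of-ratios scaling and under looser and stricter filters on cells; other gates were not run. Over all cells at E14.5 (0.20) the family ratio moved to 0.35 with cells thinned, 0.57 without 5 cells, 0.32 without 1 cell and 0.35 without choroid plexus cells. In E14.5 inhibitory cells (-0.10) it was 0.76 thinned, 0.96 without 5 cells, 0.37 without 1 cell, 1.09 with stricter gates, 1.23 without cells of 2 or more gates and 0.25 without choroid plexus cells. There Zic2 (-1.44) reached 0.15 without cells of 2 or more gates. Zic4 (-0.76) was 1.03 without 5 cells, 1.27 with stricter gates and 1.31 without cells of 2 or more gates. Zic5 (-0.35) was 1.18 thinned, 0.87 without 5 cells, 1.00 with stricter gates, 2.09 without cells of 2 or more gates and 0.30 without 1 cell. In E14.5 progenitors (0.07) the family was 0.29 without 5 cells and 0.26 without choroid plexus cells. At P0 it was 0.60 over all cells without the top doublet scores (0.79), 1.99 without 5 cells and 0.43 without cells of 2 or more gates in inhibitory cells (1.30), and -0.0065 without the top doublet scores and 0.46 with stricter gates in progenitors (0.23), where Zic4 (0.86) was -0.096 without the top doublet scores. The cause was not tested. Leaving out 1 cell and choroid plexus cells was chosen after seeing the data. With no filter on low counts, 7647 genes in all cells and 6355 in inhibitory cells passed 2-fold at E14.5 (924 and 911), and 7312 and 5070 at P0 (663 and 440), where thinning left 207 in inhibitory cells. Of genes past 2-fold at E14.5, 35.2% over all cells and 46.2% in inhibitory cells were higher in the labelled KO, with 11.3% and 13.9% under no filter on low counts and 63.3% and 76.9% thinned; over all P0 cells 78.1% were higher in KO, and 44.1% under no filter. Zic4 ratios in P0 inhibitory cells rest on 3 counts in KO and 1 in WT (none without cells of 2 or more gates), and 17 Prox1-positive P0 WT cells limit that comparison.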
